A study of Mus musculus with 18 samples.

Results

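The genes described here encode the subunits of the respiratory chain and of ATP synthase, with the complex I assembly factors that share their names. They were taken by symbol: every entry that starts with Ndufa, Ndufb, Ndufc, Ndufs or Ndufv, with Uqcr, with Cox4 to Cox8 or with Atp5, together with *Sdha*, *Sdhb*, *Sdhc*, *Sdhd* and *Cyc1*. The pattern found 93 of the 23352 gene symbols. None of the 93 had a value that the deposited tables mark as failed, and 87 had a mean of at least 1 FPKM over all libraries and were tested among 10835 genes. FPKM counts fragments per kilobase of transcript, scaled to the mapped reads of the library, so levels of different genes can be compared per length. The 6 genes under the minimum were *Cox4i2*, *Cox6a2*, *Cox6b2*, *Cox7b2*, *Cox8b* and *Cox8c*. The lowest mean above the minimum was 1.45 FPKM for *Ndufa4l2* and the highest mean under it was 0.588 FPKM for *Cox6b2*.

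Liver poly(A) RNA was sequenced from 9 wild-type and 9 *Gpr180*KO male mice, 20 weeks old and fed a high fat diet (HFD), with 1 library per mouse. *Gpr180*KO mice are homozygous for a whole-body deletion of exon 6 of *Gpr180*, made with CRISPR/Cas9, and had been backcrossed. Wild-type controls came from the same breeding. All 18 mice were on HFD, so diet was not compared. In bulk liver RNA, fewer cells of a type and less RNA per cell cannot be told apart.

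The targeted gene *Gpr180* was at 6.79 ± 1.99 FPKM in wild-type livers (mean ± SD, n = 9). *Gpr180*KO livers had 1.60 ± 0.37 FPKM (n = 9), and the groups did not overlap (exact permutation test, two-sided, p = 4.11e-05, which is the minimum for 9 against 9). Read totals are not in the tables, and the study states only an approximate range of reads for its samples as a whole, so the depth behind each FPKM was not used. The sample titles have 2 styles, called here series 1 (4 wild-type and 4 *Gpr180*KO) and series 2 (5 of each). What the styles stand for is not given in the sources used here. The library KOhfd51 stood apart: its FPKM summed to 718746, against 554796 to 629067 in the other 17. The comparisons between genotypes are therefore also given without KOhfd51. Hepatocyte markers were abundant in all libraries (summed FPKM of 9 genes 25907 to 35777 in wild-type and 30204 to 61800 in *Gpr180*KO, the highest in KOhfd51), whereas none of 8 lymphocyte markers reached a mean of 1 FPKM.

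The respiratory chain lies in the inner mitochondrial membrane. Complexes I and II pass electrons from NADH and succinate to coenzyme Q, complex III passes them on to cytochrome c, and complex IV hands them to oxygen. Complexes I, III and IV pump protons, and ATP synthase uses the returning protons to make ATP. Most subunits are encoded in the nucleus and are studied here. A few core subunits of complexes I, III and IV and of ATP synthase are encoded in mitochondrial DNA, and none of 26 mitochondrial symbols looked for was found in the tables. The liver has many mitochondria and burns fatty acids through this chain.

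Levels differed between the complexes in wild-type livers. The 7 core subunits of complex I encoded in the nucleus had a median of 85.4 FPKM, and the lowest mean was 60.6 FPKM for *Ndufs1*. The 29 supernumerary subunits, which surround that core, ranged from 12.4 FPKM for *Ndufa11* to 331.6 FPKM for *Ndufa3*, with a median of 128.3 FPKM. The 4 subunits of complex II lay between 121.2 FPKM for *Sdhc* and 223.9 FPKM for *Sdha*, the flavoprotein. Medians were higher in the later complexes: 325.4 FPKM for 9 genes of complex III, 361.5 FPKM for 14 genes of complex IV and 275.9 FPKM for 16 genes of ATP synthase. The 8 complex I assembly factors, which do not stay in the finished complex, had a median of 8.2 FPKM.

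Several subunits are encoded by alternative genes, of which one is used in most tissues and another in fewer. Some of the latter are forms of heart, muscle, lung or low oxygen. *Cox4i1*, the common form of subunit 4 of complex IV, had 389.2 to 587.9 FPKM in wild-type (median 420.0) and 353.6 to 983.4 FPKM in *Gpr180*KO livers (median 525.2). Its lung and low oxygen form *Cox4i2* was listed at 0 in 8 of 18 libraries and did not exceed 0.370 FPKM in any. *Cox6a2*, a heart and muscle form, was also listed at 0 in 8 libraries and did not exceed 0.284 FPKM. *Cox8b* was listed at 0 in 11 libraries, with at most 0.835 FPKM, while *Cox8a* had 336.1 to 535.1 FPKM in wild-type and 263.7 to 696.0 FPKM in *Gpr180*KO livers. *Cox7b2* and *Cox8c* were listed at 0 in all 18 libraries, and *Cox6b2* had at most 1.587 FPKM. Both genotypes had these forms near or at 0.

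The heart and muscle form *Cox7a1* was measured in every library. Its level was 2.44 to 4.72% of that of *Cox7a2* in wild-type (median 3.11%) and 2.51 to 5.45% in *Gpr180*KO livers (median 2.91%). The ranges overlapped, and KO319HFD and KOhfd56 lay above all wild-type livers. *Cox7a2l*, which helps complexes III and IV to join in supercomplexes, stood at a median of 54.7% of *Cox7a2* in wild-type and 49.6% in *Gpr180*KO livers. *Ndufa4l2*, the low oxygen relative of the complex IV subunit *Ndufa4*, had 0.940 to 2.114 FPKM in wild-type against 535.9 to 840.2 FPKM for *Ndufa4*. The 3 genes *Atp5g1*, *Atp5g2* and *Atp5g3* encode the same mature c subunit of the ATP synthase ring. *Atp5g3* had 395.2 to 698.7 FPKM in wild-type, and *Atp5g1* and *Atp5g2* stood at medians of 33.3 and 37.9% of it. In *Gpr180*KO livers these medians were 37.0 and 35.1%. Annotated lengths of transcripts enter these ratios.

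**Figure D1:**
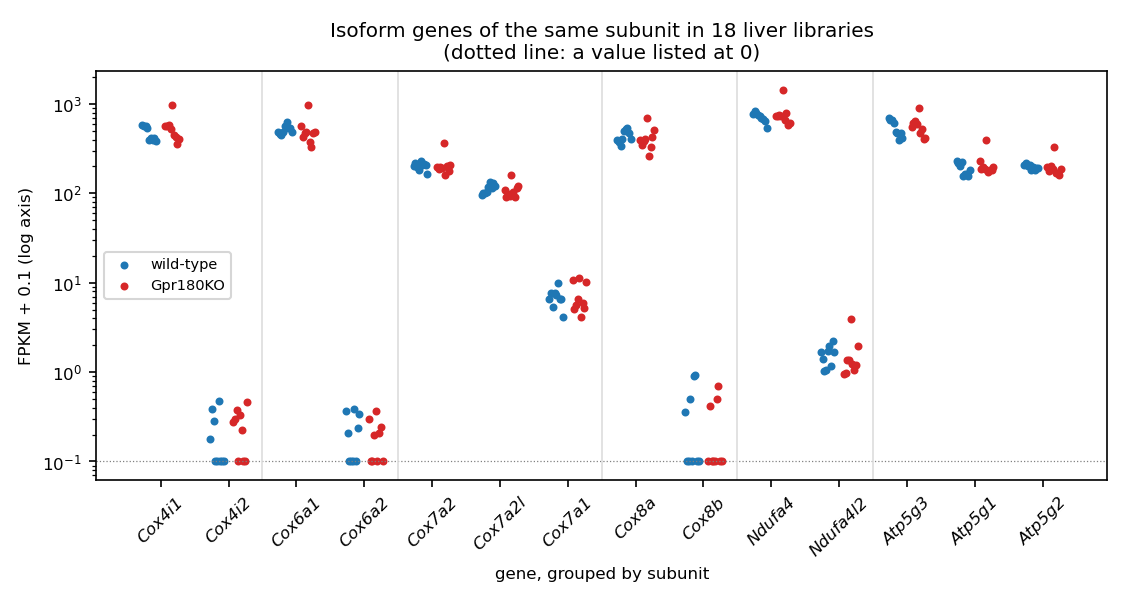
FPKM + 0.1 on a log axis for 14 genes that encode forms of the same subunits or close relatives, with 1 point per library and 9 libraries per genotype. Cox4i2, Cox6a2 and Cox8b lie near the line of values listed at 0, and the highest Gpr180KO point of most abundant genes is KOhfd51.

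No gene of the respiratory chain or ATP synthase passed the test between genotypes. Of the 87 genes 0 were called by limma at a Benjamini-Hochberg adjusted p under 0.05, against 513 of all 10835 genes (4.73%; 464 of them fell and 49 rose in *Gpr180*KO). At an unadjusted p under 0.05 there were 3 of 87 genes and 2403 of all. The genotypes overlapped in all 87 genes, while 25 of all genes tested (0.231%) had no overlap. The median log2 difference, *Gpr180*KO minus wild-type, was 0.07 over the 87 genes and -0.13 over all genes tested, and 69 of the 87 were above 0.

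These values leaned on the library KOhfd51. Without it, 0 of 87 genes were called (4 at an unadjusted p under 0.05), against 778 of all genes (7.18%). The median over the 87 genes moved to -0.00019, that over all genes to -0.10, and 43 of the 87 were above 0. Scaling moved these values too. With median-of-ratios scaling of all 18 libraries, the median was 0.19 over the 87 genes and -0.01 over all genes, 84 of the 87 were above 0, and 0 were called (21 at an unadjusted p under 0.05), against 283 of all genes (2.61%, with 1888 at an unadjusted p under 0.05). With that scaling and KOhfd51 left out, the median was 0.10, 68 were above 0, and 2 were called higher, *Atp5j* and *Sdhb* (23 at an unadjusted p under 0.05), against 486 of all genes (4.49%). By complex, the medians with all libraries and without KOhfd51 were 0.11 and 0.01 for the complex I core and 0.06 and -0.05 for its supernumerary subunits. They were 0.06 and 0.06 for complex II, 0.04 and -0.00089 for complex III, 0.02 and -0.07 for complex IV, and 0.11 and 0.03 for ATP synthase. The complex I assembly factors had medians of 0.10 and 0.08. No gene was called in any of the 7 classes in either fit.

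**Figure D2:**
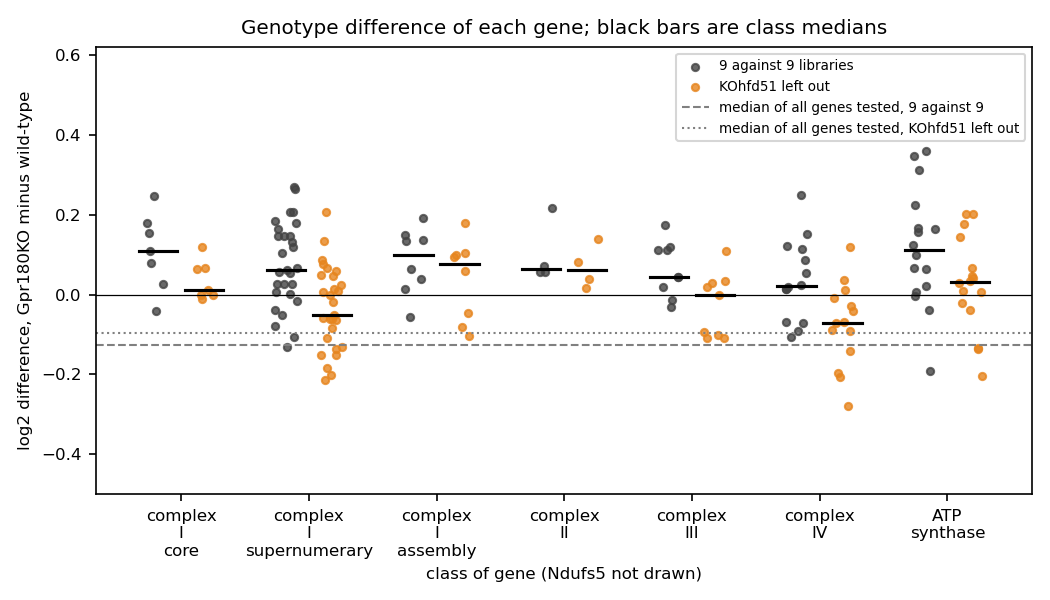
Log2 difference of each gene, Gpr180KO minus wild-type, by class, for all 18 libraries (dark) and without KOhfd51 (orange), with class medians as bars and the medians of all genes tested as broken lines. Without KOhfd51 the class medians lie between -0.07 and 0.08.

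These differences had narrow intervals. The 95% interval of the log2 difference lay within ±0.5 for 73 of the 87 genes, and for 82 without KOhfd51. Apart from *Ndufs5*, described below, the most negative lower bound was -0.59 (*Ndufa4l2*) and the highest upper bound 0.91 (*Atp5e*), or -0.65 and 0.68 for the same genes without KOhfd51. A p that misses the threshold does not show equal levels.

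*Sdhb*, in complex II, came nearest to the threshold with all libraries. Without KOhfd51 *Ndufa8* was nearest, with a log2 difference of -0.21 (limma, adjusted p = 0.12). *Sdhb*, on chromosome 4 (140961271 to 140979192, mm10), encodes the iron-sulfur subunit that passes electrons from *Sdha* to coenzyme Q. It had 161.3 to 195.7 FPKM in wild-type (median 175.7) and 182.3 to 318.7 FPKM in *Gpr180*KO livers (median 197.4), with KOhfd51 the highest. The ranges overlapped, and 5 of 9 *Gpr180*KO livers lay above the highest wild-type liver. The log2 difference was 0.22 ± 0.09 (SE; limma, adjusted p = 0.17), and 0.14 ± 0.05 without KOhfd51 (adjusted p = 0.13). With KOhfd51 left out and the title series as a block, *Sdhb* was called higher at 0.13 (adjusted p = 0.033), in a fit that called 18.3% of all genes.

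In that same fit *Ndufa9* was called higher, and *Ndufa8* and *Atp5g2* were called lower, so 4 of 87 genes (against that 18.3%) passed in opposite directions. *Sdha* itself had 193.6 to 248.9 FPKM in wild-type (median 218.1) and 201.8 to 247.0 FPKM in *Gpr180*KO livers (median 234.0). The ranges lay almost on top of each other, with a log2 difference of 0.06 ± 0.07 (limma, adjusted p = 0.63), or 0.08 without KOhfd51. *Sdhc* and *Sdhd*, the membrane anchors, differed by 0.06 (adjusted p = 0.78) and 0.07 (adjusted p = 0.61), or 0.02 and 0.04 without KOhfd51.

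In ATP synthase, *Atp5o* had the lowest p with all libraries, and *Atp5g2* without KOhfd51 (-0.13 ± 0.06, adjusted p = 0.15). *Atp5o* encodes the stalk subunit that holds the catalytic head to the membrane part and lies on chromosome 16 (91925223 to 91931630). It had 148.7 to 227.9 FPKM in wild-type (median 159.7) and 193.0 to 406.7 FPKM in *Gpr180*KO livers (median 203.9). Only 2 of 9 *Gpr180*KO livers, KO319HFD and KOhfd51, were above the highest wild-type liver. The log2 difference was 0.31 ± 0.14 (limma, adjusted p = 0.18), and 0.20 ± 0.10 without KOhfd51 (adjusted p = 0.20). It differed by title series: -0.05 in series 1 (adjusted p = 0.66) and 0.60 in series 2 (adjusted p = 0.15), where all 5 *Gpr180*KO livers lay above all 5 wild-type livers. The difference between the series was 0.66 ± 0.23 and was not called (limma interaction, adjusted p = 0.58, and 0.12 without KOhfd51). Without KOhfd51, series 2 gave 0.40 for *Atp5o* (adjusted p = 0.049), the single gene of the group called there, in a fit that called 6 of all genes (0.0554%).

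The catalytic subunits *Atp5a1* and *Atp5b* form the head of ATP synthase. *Atp5a1* had 389.1 to 466.5 FPKM in wild-type (median 433.5) and 414.5 to 476.1 FPKM in *Gpr180*KO livers (median 439.9), a log2 difference of 0.02 ± 0.06 (limma, adjusted p = 0.83). *Atp5b* had 548.3 to 687.4 FPKM in wild-type (median 583.2) and 556.1 to 785.4 FPKM in *Gpr180*KO livers (median 653.2), with a difference of 0.10 ± 0.07 (adjusted p = 0.44). Both overlapped over most of their range, and without KOhfd51 the differences were 0.0089 and 0.07. *Atp5j*, the coupling factor 6 subunit, was the other gene of ATP synthase with an unadjusted p under 0.05, chosen after its values were seen. It had 208.6 to 278.0 FPKM in wild-type and 229.0 to 441.7 FPKM in *Gpr180*KO livers, a difference of 0.22 ± 0.11 (adjusted p = 0.21), or 0.14 without KOhfd51 (adjusted p = 0.24). *Atp5j* overlaps *Gabpa*, and whether reads were counted by strand is not given in the sources used here.

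In complex I, *Ndufs1* and *Ndufv1* carry iron-sulfur clusters and the NADH binding site. *Ndufs1* had 53.3 to 66.9 FPKM in wild-type (median 61.1) and 47.2 to 65.5 FPKM in *Gpr180*KO livers (median 60.7), where KOhfd51 was the lowest. Its log2 difference was -0.04 ± 0.07 (limma, adjusted p = 0.73). *Ndufv1* had 69.7 to 107.7 FPKM in wild-type and 70.4 to 154.1 FPKM in *Gpr180*KO livers, a difference of 0.15 ± 0.14 (adjusted p = 0.52). The groups overlapped in both genes, and without KOhfd51 the differences were -0.0021 and 0.06. The lowest p values among the core, supernumerary and assembly genes were those of *Ndufs7* (0.25 ± 0.17, adjusted p = 0.39), *Ndufa9* (0.26 ± 0.14, adjusted p = 0.27) and *Atp5sl* (0.19 ± 0.09, adjusted p = 0.24). Without KOhfd51 these were 0.12, 0.21 and 0.18. *Atp5sl* is an older symbol of *Dmac2*, which takes part in assembly of the complex I membrane arm.

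In complex III, *Uqcrfs1*, the Rieske iron-sulfur protein, had 100.03 to 167.8 FPKM in wild-type (median 121.4) and 115.9 to 211.2 FPKM in *Gpr180*KO livers (median 149.9). Its log2 difference was 0.17 ± 0.12 (limma, adjusted p = 0.39). *Cyc1*, cytochrome c1, had 131.3 to 173.7 FPKM in wild-type (median 137.7) and 129.7 to 256.2 FPKM in *Gpr180*KO livers (median 156.2), a difference of 0.11 ± 0.11 (adjusted p = 0.57). In both genes the *Gpr180*KO range without KOhfd51 stayed close to the wild-type range, at most 158.9 and 174.8 FPKM, with differences of 0.11 and 0.03.

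In complex IV, *Cox5b* had 242.1 to 334.7 FPKM in wild-type (median 275.1) and 231.6 to 630.4 FPKM in *Gpr180*KO livers (median 277.6). The difference was 0.12 ± 0.14 (limma, adjusted p = 0.62), and -0.01 without KOhfd51. *Cox5a*, with the lowest p of the complex, differed by 0.25 ± 0.19 (adjusted p = 0.43), and by 0.12 without KOhfd51. *Cox4i1* differed by 0.15 ± 0.16 (adjusted p = 0.58), *Cox6a1* by -0.07 ± 0.15 (adjusted p = 0.79), *Cox7a2* by 0.02 ± 0.12 (adjusted p = 0.94) and *Cox8a* by -0.11 ± 0.15 (adjusted p = 0.67). Without KOhfd51 these were 0.04, -0.20, -0.09 and -0.21. In each of these genes KOhfd51 was the highest of the 18 libraries.

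KOhfd51 stood above all 17 other libraries in 78 of the 87 genes, against 2040 of all 10835 genes (18.8%). The genes not above the rest were *Atp5s*, *Atp5sl*, *Ndufa12*, *Ndufaf4*, *Ndufaf5*, *Ndufs1*, *Ndufs5*, *Sdha* and *Uqcrc2*, and *Ndufs1* was below all 17. The median log2 distance of KOhfd51 from the median of the other 8 *Gpr180*KO livers was 0.91 over the 87 genes, a 1.88-fold level, and -0.18 over all genes. It was largest for the complex I supernumerary subunits (0.98) and complex IV (0.95), and smallest for complex II (0.32) and the assembly factors (0.37). The 93 genes held 4.66% of the summed FPKM of KOhfd51 and 2.77 to 3.34% of that of the other libraries.

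**Figure D3:**
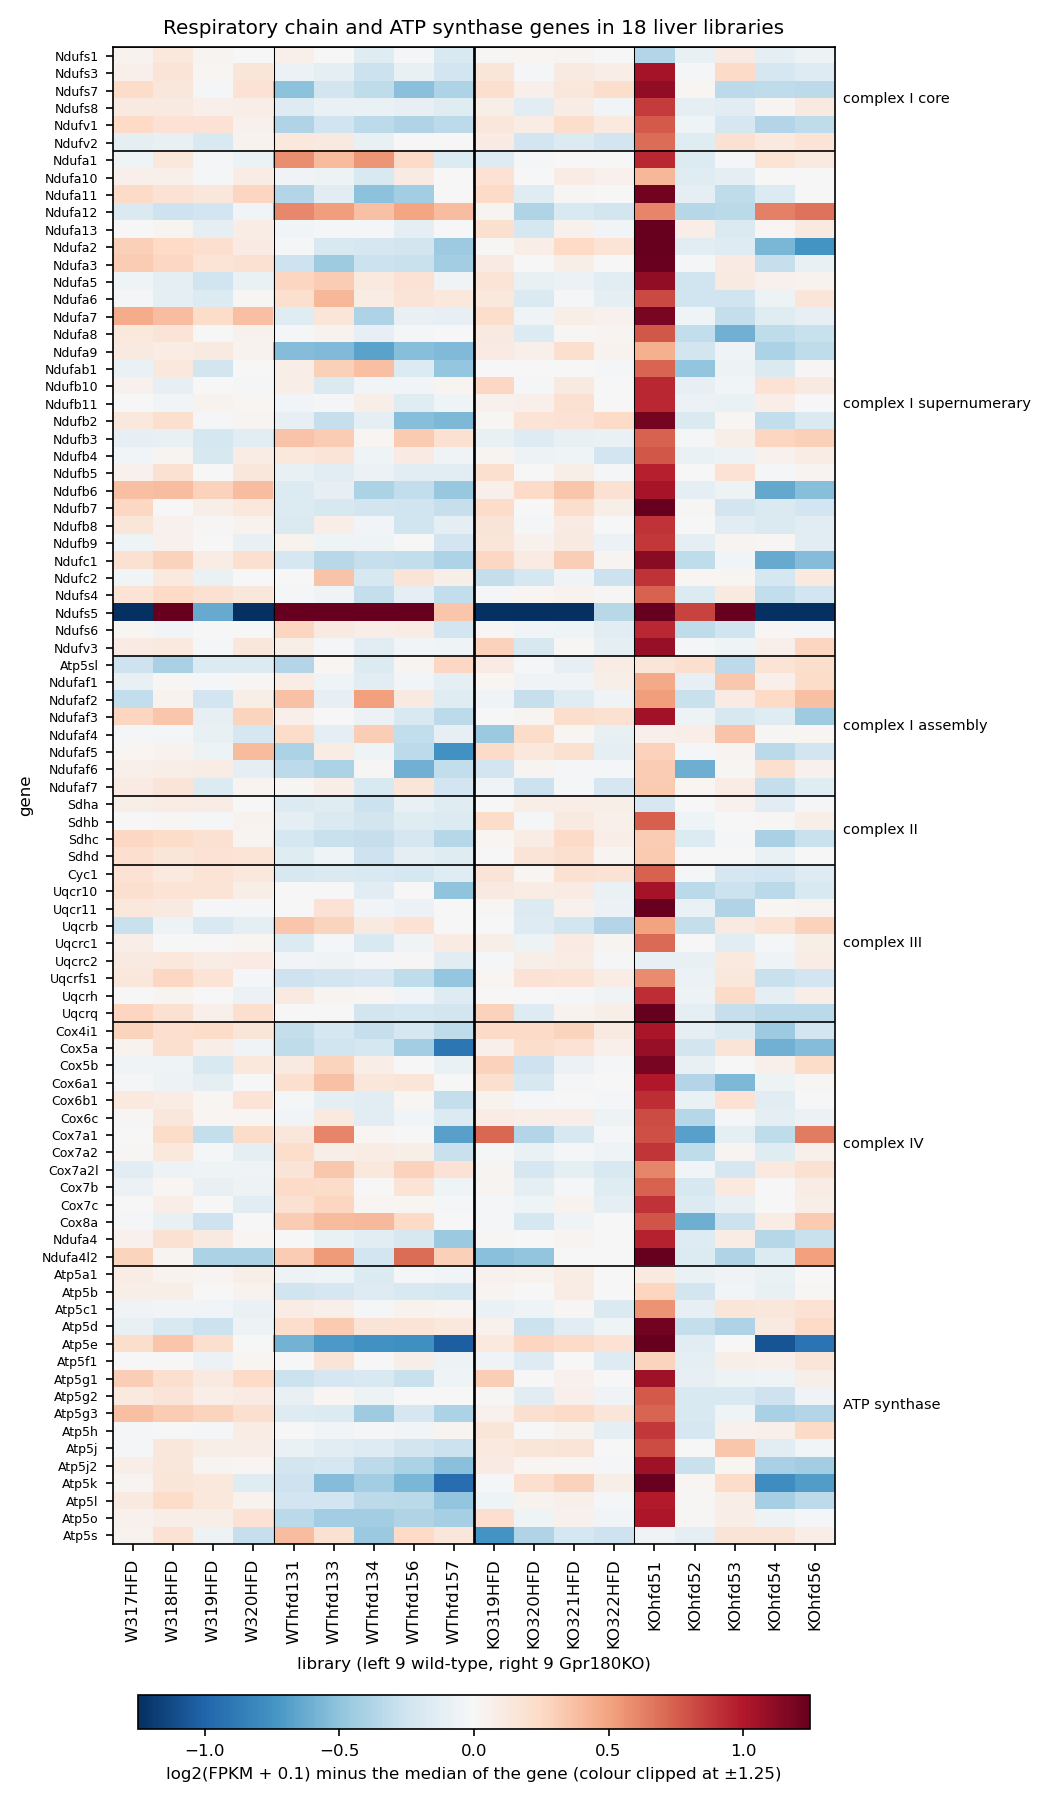
Log2(FPKM + 0.1) of the tested genes, 1 of which is not drawn, in 18 libraries, each gene relative to its median, with black lines between genotypes, title series and classes. The column of KOhfd51 is high in all classes except for a few genes such as Ndufs1, Sdha and Uqcrc2, and many genes differ between the left 4 and the next 5 wild-type columns.

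From 500 nt up, the median distance of KOhfd51 fell as transcripts got longer. The 87 genes have a median annotated length of 865 nt, against 2689 nt for all genes tested, and 50 of them are shorter than 1000 nt. Among genes under 500 nt, the median log2 distance was 1.18 for 8 genes of the respiratory chain and ATP synthase. For 187 other genes of that length it was 0.60, lower than in the next class. From 500 to under 1000 nt it was 0.98 for 42 genes of the group and 0.75 for 723 others. From 1000 to under 2000 nt it was 0.68 for 29 genes and 0.33 for 2583 others. From 2000 to under 4000 nt it was 0.22 for 8 genes and -0.22 for 4336 others, and in genes of 4000 nt and over, with no gene of the group, it was -0.92. In the 8 genes from 2000 nt the distances were spread, from -0.37 for *Ndufs1* and -0.24 for *Sdha* to 0.73 for *Ndufab1* and 1.06 for *Atp5g1*. In each of these classes that held genes of the group, their median was above that of the other genes, and with 1 library per mouse the library and the mouse cannot be told apart.

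**Figure D4:**
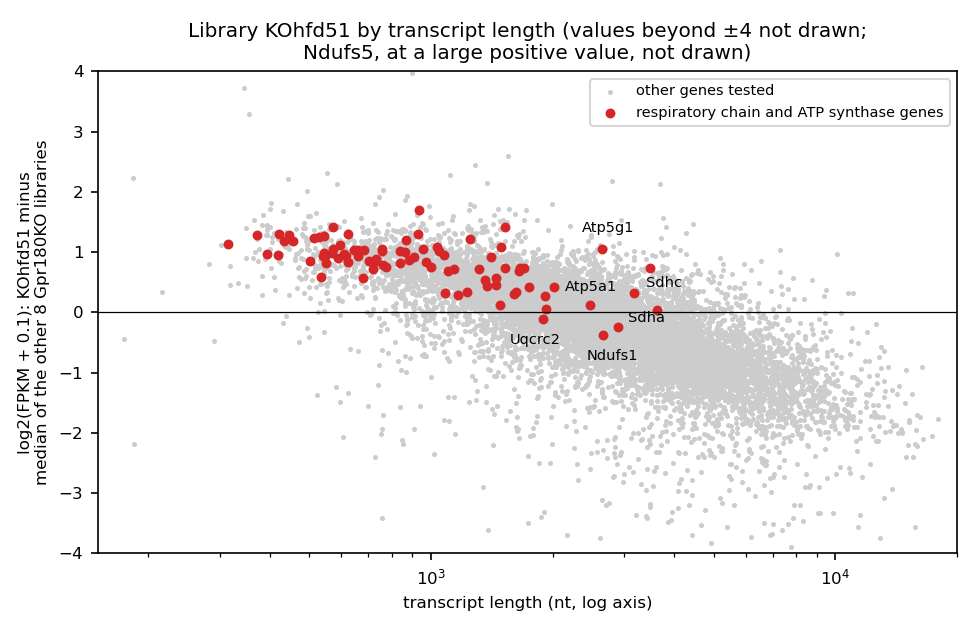
Distance of KOhfd51 from the median of the other 8 Gpr180KO libraries on the log2(FPKM + 0.1) scale against annotated transcript length on a log axis, for the respiratory chain and ATP synthase genes (red) and other genes tested (grey). Short genes lie above 0 and long genes below it, and 40 genes beyond ±4, Ndufs5 among them, are not drawn.

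Within the title series, with all their libraries, no gene of the group was called between genotypes. In series 1, 0 of 87 were called by limma (8 at an unadjusted p under 0.05), against 578 of all genes (5.33%), and the median log2 difference was -0.02, with -0.07 over all genes. In series 2, 0 of 87 were called (4 at an unadjusted p under 0.05), against 0 of all genes (0%, with 2019 at an unadjusted p under 0.05), and the median was 0.19, with -0.17 over all genes. Leaving KOhfd51 out of series 2 brought the median to 0.02, and 1 of 87 genes, *Atp5o*, was called higher, against 6 of all genes (0.0554%). The interaction of genotype and series was called for 0 of 87 genes (4 at an unadjusted p under 0.05) and 0 of all genes (0%, with 833 at an unadjusted p under 0.05). Without KOhfd51 it was also called for 0 of 87 (12 at an unadjusted p under 0.05) and 0 of all genes (1406). In both series 24 genes were above 0 and 9 below.

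More genes of the group were called between the title series in wild-type livers than between genotypes in any fit. Over all genes, the genotype fits with the series as a block called 10.6% with all libraries and 18.3% without KOhfd51. Among wild-type livers alone, 43 of 87 genes were called between the series, against 2179 of all genes (20.1%). Of these, 35 were lower and 8 higher in series 2, with 12.7% of all genes called lower. All 4 genes of complex II and 10 of 16 genes of ATP synthase were lower, 4 of 7 core and 11 of 29 supernumerary genes of complex I, 4 of 9 of complex III and 2 of 14 of complex IV. No assembly factor was called. The ranges of the 4 and 5 wild-type livers did not overlap in 50 of the 87 genes, against 2301 of all genes (21.2%).

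The genes named here for the series were chosen after their values were seen. *Atp5e*, the epsilon subunit of ATP synthase, had 369.0 to 467.6 FPKM in wild-type series 1 and 180.9 to 244.0 FPKM in series 2. The log2 difference, series 2 minus series 1, was -0.96 ± 0.10 (limma, adjusted p = 0.0010). *Ndufa9* had 91.5 to 95.9 FPKM in series 1 and 55.8 to 61.4 FPKM in series 2 (-0.66 ± 0.04). *Cox4i1* had 538.9 to 587.9 FPKM and 389.2 to 420.0 FPKM (-0.48 ± 0.05). In the opposite direction, *Ndufa12* had 106.7 to 125.0 FPKM in series 1 and 165.3 to 194.1 FPKM in series 2 (0.65 ± 0.07), and *Cox7a2l* had 95.6 to 102.4 and 115.4 to 133.4 FPKM (0.30 ± 0.05). In each of these 5 genes the wild-type series were separate.

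The *Gpr180*KO livers of series 2 did not form one group in these genes. *Ndufa12* had 100.2 FPKM in KOhfd52 and 101.7 FPKM in KOhfd53, both below the range of wild-type series 1. It had 198.8 FPKM in KOhfd54 and 205.6 FPKM in KOhfd56, above that of wild-type series 2. *Atp5e* had 336.3 and 368.6 FPKM in KOhfd52 and KOhfd53, between the wild-type series, and 174.3 and 194.9 FPKM in KOhfd54 and KOhfd56. Over 653 genes outside the group that separated the wild-type series, the position on a scale from 0 (wild-type series 1) to 1 (wild-type series 2) was 0.27, 0.66 and 0.85 for KOhfd51, KOhfd52 and KOhfd53, and 1.20 and 1.05 for KOhfd54 and KOhfd56. The 4 *Gpr180*KO livers of series 1 lay between 0.15 and 0.29. Without KOhfd51, KOhfd52 and KOhfd53 the median over the 87 genes was 0.01, with -0.08 over all genes. In that fit 0 of 87 were called by limma (5 at an unadjusted p under 0.05), against 19 of all genes (0.175%, with 1861 at an unadjusted p under 0.05).

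**Figure D5:**
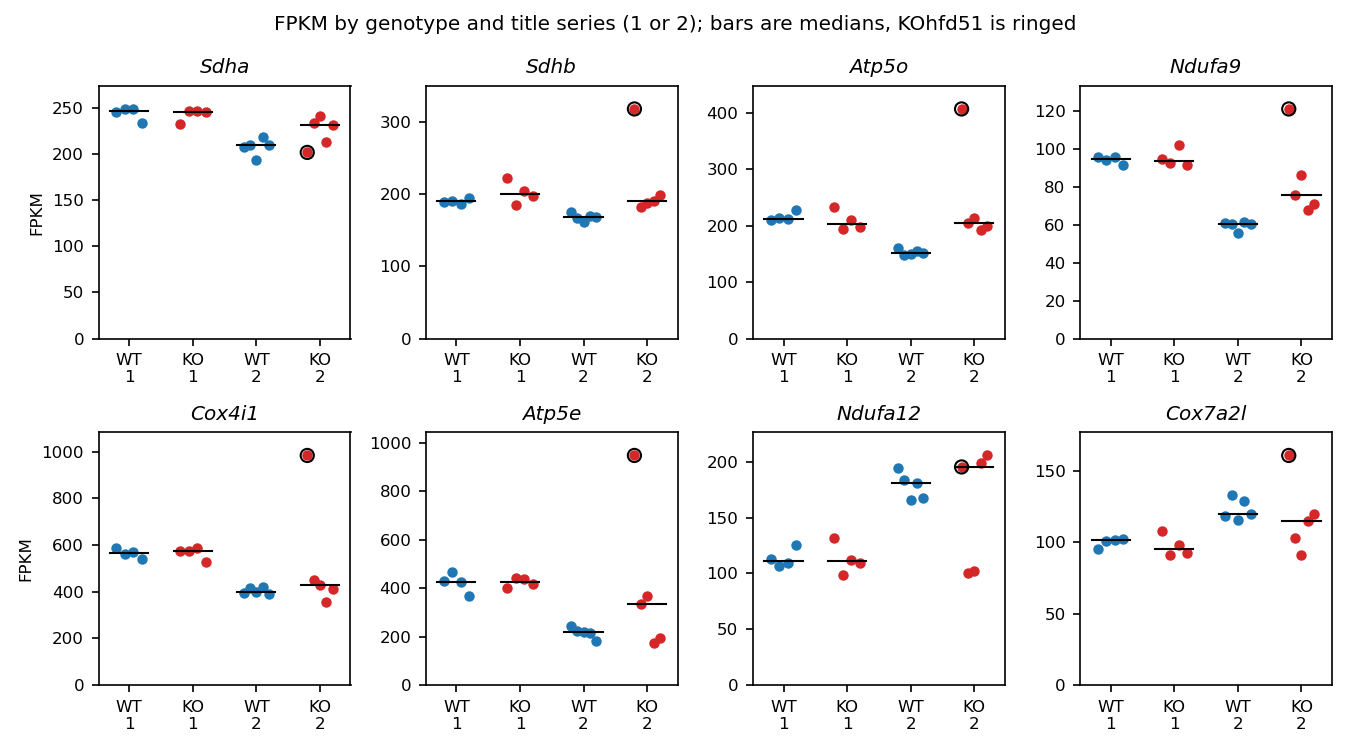
FPKM of 8 genes by genotype (WT, wild-type, and KO, Gpr180KO) and title series, with 1 point per library, medians as bars and KOhfd51 ringed. The wild-type series are separate in each gene, and Ndufa12 splits the Gpr180KO livers of series 2 into 2 low and 3 high values.

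*Ndufs5*, a small supernumerary subunit of complex I, had values that cannot be read as a level of the gene alone. It ranged from 0.0011 to 187.8 FPKM among wild-type livers and from 0.0013 to 87.4 FPKM among *Gpr180*KO livers. The entry *BC002163* has the same locus on chromosome 4 (123712710 to 123718186), and had 25.5 FPKM, its lowest wild-type value, in the liver where *Ndufs5* was highest. The sum of both entries was 150.3 to 213.4 FPKM in wild-type and 123.1 to 173.4 FPKM in *Gpr180*KO livers without KOhfd51, which had 279.5 FPKM. The log2 difference of *Ndufs5* alone was -2.79 ± 1.75 (limma, adjusted p = 0.35), and that of the sum -0.11 ± 0.13 (adjusted p = 0.62), or -0.21 ± 0.08 without KOhfd51 (adjusted p = 0.13).

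Genes around the chain were counted from lists set by role. They held 27 tested assembly factors of complexes II to V, 7 further complex I assembly factors and 13 genes of coenzyme Q synthesis. The others were 15 regulators of respiratory genes and 16 genes of the tricarboxylic acid cycle. With the deposited scaling limma called 0 genes in any of these lists, against 513 of all 10835 genes (4.73%). At an unadjusted p under 0.05 the lists had 4, 0, 2, 2 and 5 genes in that order, against 2403 of all genes. The median log2 differences of the lists were -0.06, -0.02, 0.02, -0.08 and -0.08. Without KOhfd51 these were -0.10, -0.03, -0.0046, -0.07 and -0.06 in the same order, and *Coq7* was called lower (-0.32, adjusted p = 0.023). Rescaling the libraries by median of ratios removed the *Coq7* call: 0 genes of coenzyme Q synthesis then fell below the threshold as lower without KOhfd51. That fit called 2 genes of coenzyme Q synthesis, 1 regulator and 1 gene of the tricarboxylic acid cycle higher. Of all genes it called 193 higher and 293 lower. Over all 18 libraries, *Coq7* so rescaled differed by -0.11 (limma, adjusted p = 0.69). With median-of-ratios scaling of all 18 libraries *Tfam*, *Coq5* and *Adck3* were called higher (log2 differences 0.30, 0.22 and 0.44, limma, adjusted p = 0.033, 0.048 and 0.041). That fit called 283 of all 10835 genes (2.61%), 112 of them higher. Among the regulators, *Ppargc1a*, a coactivator of mitochondrial genes, differed by 0.02 (adjusted p = 0.97), *Nrf1* by -0.11 (adjusted p = 0.60), *Gabpa* by -0.24 (adjusted p = 0.45) and *Tfam*, which packs mitochondrial DNA, by 0.17 (adjusted p = 0.20).

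Among 14 electron carriers and ATP exporters, 1 was called, and it was lower, against 513 of all 10835 genes (4.73%). Without KOhfd51, 2 of the 14 were called lower, against 778 of all genes (7.18%). *Ucp2*, an inner membrane carrier, had 6.81 to 19.5 FPKM in wild-type (median 11.0) and 3.88 to 10.4 FPKM in *Gpr180*KO livers (median 8.01). The ranges overlapped, and the log2 difference was -0.78 ± 0.20 (limma, adjusted p = 0.036), or -0.82 without KOhfd51 (adjusted p = 0.032). With median-of-ratios scaling it was -0.66 and missed the threshold (adjusted p = 0.062). *Atpif1*, the inhibitor that binds ATP synthase when the membrane potential is lost, had 35.3 to 64.4 FPKM in wild-type (median 45.3) and 22.0 to 57.0 FPKM in *Gpr180*KO livers (median 31.3). Its highest *Gpr180*KO value was KOhfd51, with 38.7 FPKM as the next. The log2 difference of *Atpif1* was -0.49 ± 0.14 (limma, adjusted p = 0.052) with all libraries, and -0.59 without KOhfd51 (adjusted p = 0.014). With median-of-ratios scaling of all libraries it was -0.37 and was not called (adjusted p = 0.19). That scaling with KOhfd51 left out called 2 of the 14 genes lower.

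Some markers of other liver cells were called between genotypes, beside 464 of all 10835 genes called lower and 49 called higher. *Ucp2* is also expressed by macrophages. Among 9 macrophage markers only *Cd68* was called, and it was lower. The median log2 difference of the 9 was -0.20, with *Clec4f* and *Timd4* above 0. Summed FPKM of the 9 was 181.0 to 469.2 in wild-type livers. The sums of *Gpr180*KO livers, 216.4 to 312.1 FPKM, lay inside that range. Of 10 stellate cell and fibroblast markers, 5 were called lower (*Col1a1*, *Col1a2*, *Col3a1*, *Dcn* and *Pdgfrb*), with sums of 164.8 to 318.9 and 99.4 to 175.4 FPKM. Only 2 of 5 biliary markers, *Sox9* and *Spp1*, were tested, and both were called lower, with sums of 39.1 to 224.3 and 15.7 to 48.4 FPKM. These sums were mostly *Spp1*, with a wild-type mean of 133.5 FPKM against 1.44 FPKM for *Sox9*. With median-of-ratios scaling *Sox9* missed the threshold (limma, adjusted p = 0.12). Of 10 endothelial markers, 0 were called. Among hepatocyte markers 1 of 9, *Cyp3a11*, was called lower. Only 2 of 9 adipocyte and muscle markers, *Cfd* and *Cidea*, were tested, and 0 were called. These 2 genes had sums between 9.28 and 67.1 FPKM for wild-type mice. For *Gpr180*KO mice the sums spread from 4.44 FPKM up to 325.9 FPKM, the latter being KOhfd51. That library was not alone above the wild-type sums, because *Cfd* by itself reached 97.1 FPKM in another knockout. The part of these cells in the values of *Ucp2*, *Atpif1* or the chain was not tested.

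Promoters were looked at for letters that the symbols did not select. RefSeq start sites on GRCm38.p6 gave windows of 250 bases before to 50 after the start for 76 of the 93 genes. NRF1 is a factor known to bind promoters of respiratory genes, and its core CGCATGCG reads the same on both strands. It occurred in the windows of 11 of the 76 genes (14.5%), against 4.58% of 8048 tested genes with a window and 1.87% of all 32851 windows. The YY1 core AAGATGGCG, on either strand, occurred in 8 (10.5%), against 3.93% of tested genes and 1.40% of all windows. The ETS core CCGGAAGT, bound by GABPA, occurred in 5 (6.58%), against 9.70% and 3.89%. A match describes these letters and is not a binding site.

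The stretches before the RefSeq start that carry the NRF1 core are printed to show where it lies in 8 genes. The core is in capitals, and the stretches read 5′ to 3′ on the strand of the gene.
Atp5g2: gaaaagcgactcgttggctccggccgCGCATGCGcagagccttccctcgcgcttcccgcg
Atp5j: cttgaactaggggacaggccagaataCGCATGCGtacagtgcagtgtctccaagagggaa
Atp5k: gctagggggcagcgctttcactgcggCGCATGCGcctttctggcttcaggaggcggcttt
Atp5l: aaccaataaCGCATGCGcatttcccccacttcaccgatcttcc
Cox6a1: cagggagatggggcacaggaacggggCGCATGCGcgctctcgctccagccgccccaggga
Ndufa11: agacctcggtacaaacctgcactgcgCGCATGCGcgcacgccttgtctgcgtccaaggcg
Ndufa8: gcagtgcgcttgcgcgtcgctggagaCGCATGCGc
Ndufaf4: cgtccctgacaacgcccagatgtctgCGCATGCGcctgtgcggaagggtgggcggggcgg

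They lie at chr15:102671055-102671114 (-) for *Atp5g2*, chr16:84835090-84835149 (-) for *Atp5j*, chr5:108434415-108434474 (-) for *Atp5k*, chr9:44920950-44920992 (-) for *Atp5l*, chr5:115349086-115349145 (-) for *Cox6a1*, chr17:56717677-56717736 (+) for *Ndufa11*, chr2:36049339-36049373 (-) for *Ndufa8* and chr4:24897945-24898004 (+) for *Ndufaf4*. The first base of the core was 9 bases before the start in *Ndufa8* and 241 bases before it in *Atp5l*. In *Atp5j* the stretch is before the RefSeq start used here but inside the locus of the FPKM entry (84827871 to 84835574). There the core may therefore lie within the gene. The other 3 genes, *Ndufaf5*, *Uqcr11* and *Uqcrc1*, hold the core after the start or across it. The 11 genes with the core had a median log2 genotype difference of 0.11, against 0.08 for 62 without it, and 0.03 against -0.0011 without KOhfd51. None of either set was called in those fits. Their wild-type means had medians of 198.9 and 167.7 FPKM.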

How the data were processed

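FPKM tables of 18 HFD liver libraries, 9 wild-type and 9 *Gpr180*KO, were used. The authors made poly(A) TruSeq libraries, aligned single reads to mm10 with TopHat and deposited FPKM per gene with confidence bounds. The quantifier and the annotation behind the FPKM are not given in the sources used here. FPKM of the 23847 entries were summed per symbol, and 24 genes with 190 failed values were left out.

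Genes with a mean of at least 1 FPKM entered limma 3.58.1 (R 4.3.3, trended eBayes) as log2(FPKM + 0.1). P values were adjusted by Benjamini-Hochberg across 10835 genes, with a threshold of 0.05. A difference on this scale understates the change of low genes. FPKM are not counts, so no count test was run, and read totals per library are not in the tables. Lengths came from GENCODE vM21 and promoters from RefSeq (GRCm38.p6). Sums and plots used Python 3.11.15, pandas 2.3.3 and matplotlib 3.10.9.

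The values of 1 gene are not reported here. Named were the isoform genes, 9 core subunits, the gene with the lowest p in each class and up to 10 called genes. The genes and lists were chosen with earlier results of these data known. Alternatives were pseudocounts of 1 and 0.01, minimums of 0.1, 5 or none, other scalings, the title series as a block or alone, weights per library, robust eBayes and each library left out. Settings that combine these with libraries KOhfd51 to KOhfd53, and *Ndufs5* summed with BC002163, were chosen after seeing the data.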

Additional observations from a re-analysis of the deposited data

Results flagged for a closer look

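Of 72 sets of 9 libraries checked, 22 had 1 library whose gap to the nearest other was large for the spread of its group, and in all 22 that library was KOhfd51 among the *Gpr180*KO livers. Chance alone marks about 1 in 20 such sets, and these 22 share 1 library. The mean log2(FPKM + 0.1) of KOhfd51, centred on each gene's mean over 18 libraries, was 0.63 for the complex I core, 0.92 for its supernumerary subunits, 0.41 for its assembly factors, 0.75 for complex III, 0.91 for complex IV, 0.79 for ATP synthase and 0.78 for all genes of the group. Complex II was not marked, and neither was any set of wild-type libraries.

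Single genes were marked in KOhfd51 at 983.4 FPKM for *Cox4i1*, 976.8 FPKM for *Cox6a1*, 368.6 FPKM for *Cox7a2*, 160.9 FPKM for *Cox7a2l*, 392.3 FPKM for *Atp5g1*, 329.0 FPKM for *Atp5g2*, 1439 FPKM for *Ndufa4*, 3.86 FPKM for *Ndufa4l2*, 47.2 FPKM for *Ndufs1*, 318.7 FPKM for *Sdhb*, 256.2 FPKM for *Cyc1*, 630.4 FPKM for *Cox5b*, 159.3 FPKM for *Ndufs7*, 439.5 FPKM for *Cox5a* and 406.7 FPKM for *Atp5o*. *Ndufs1* was the one gene marked for a low value. The limma interaction of genotype and title series was called for no gene of the group. It was called for 0 of all 10835 genes too, so this does not set the group apart.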

How the results depend on the processing

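Under each of 31 other settings, 18 of which leave out 1 library, 0 genes of the group were called lower and 0 higher (range 0 to 0). With other minimums 91 (0.1 FPKM), 84 (5 FPKM) or 93 (none) of them were tested. Settings chosen after seeing the data called a few. With KOhfd51 left out and the title series as a block, 2 of 87 were lower and 2 higher, against 18.3% of all genes called. With KOhfd51 left out and median-of-ratios scaling, 2 were higher, *Atp5j* and *Sdhb* (4.49% of all genes). With KOhfd51, KOhfd52 and KOhfd53 left out and the block, 1 was lower, *Ndufb6* (10.4% of all genes). With series 2 alone and KOhfd51 left out, 1 was higher, *Atp5o* (0.0554% of all genes). The cause was not tested.

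Leaving out 1 library gave a median log2 difference over the 87 genes between -0.00019 (without KOhfd51) and 0.11. The ranges were 0.01 to 0.14 for the complex I core, -0.05 to 0.13 for its supernumerary subunits, 0.05 to 0.12 for its assembly factors and 0.04 to 0.10 for complex II. They were -0.00089 to 0.10 for complex III, -0.07 to 0.08 for complex IV and 0.03 to 0.15 for ATP synthase. Median-of-ratios scaling moved the median of all genes tested from -0.13 to -0.01 and that of the 87 genes from 0.07 to 0.19, so the distance between them was 0.19 and 0.20. The assembly factors had 0.22 under it. Of all genes tested it called 171 lower and 112 higher, against 464 and 49. Weights per library put the 87 genes at -0.03.

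No paired analysis was possible because replicate numbers were given in accession order and pair no mice. FPKM without read totals limit what can be said of low genes such as *Ndufa4l2* and *Cox7a1*. Genes that overlap others, among them *Atp5j*, *Atp5f1*, *Ndufa2*, *Ndufa13*, *Ndufb11* and *Ndufs5*, have uncertain values.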
